A study of Mus musculus with 18 samples.

Results

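The genes described here are 7 genes of the melanosome and the pigment cell: Pmel, Tyrp1, Dct, Tyr, Gpnmb, Mlana and Mitf. They were chosen by symbol, with the 2 h difference between INS37217 and saline retinas already known. The array had 11 probe sets for 6 of them, out of 22626 probe sets tested and 12393 genes named. Pmel, Dct and Gpnmb had 1 probe set each, Mitf had 2, and Tyrp1 and Tyr had 3. Mlana had no probe set assigned to it and was not analysed here.

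Melanosomes are the organelles in which pigment cells make and store melanin. In the eye they are made by the retinal pigment epithelium, a cell layer derived from the neural tube that lies against the photoreceptors, and by melanocytes of the choroid and iris, which come from the neural crest. Pmel forms the amyloid fibrils on which melanin is laid down, Tyr catalyses the first steps of melanin synthesis, Dct and Tyrp1 act on later intermediates, and Mlana takes part in melanosome maturation. Mitf is the transcription factor that drives these genes in both kinds of pigment cell. Gpnmb is a relative of Pmel that is found in melanosomes and also in phagocytes with busy lysosomes. The mice were albino Balb/cJ, a strain whose tyrosinase is inactive, so the transcripts were measured in eyes that form no melanin.

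In every group the retina of Balb/cJ mice was detached by injecting 1 uL of fluid under it, and retinas were collected 2 h, 24 h or 7 d later. The fluid was saline in 3 groups and saline with 10 uM INS37217, an agonist of the P2Y2 nucleotide receptor also called denufosol, in the other 3. Each of the 18 Affymetrix arrays carried RNA of a pool of more than 5 retinas, with 3 pools named as biological replicates in each group, and uninjected retinas were not analysed here. Age and sex of the mice are not stated in the labels. Groups were taken from the sample titles. The source names of 8 of the 9 INS37217 arrays mention saline alone. That of saline 7 d replicate 2 gives 2 h. The differences of Gpnmb at 7 d, and from 24 h to 7 d with saline, are also given without it. Many other results that use this array are given only with it.

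The 6 measured rod photoreceptor markers had mean log2 levels of 11.88 to 12.61 in the 6 groups, and 13 measured markers of the retinal pigment epithelium had means of 7.52 to 8.13. Signals of different probes do not give shares of tissue. All values below are deposited log2 signals, on which a difference of 1 is a doubling, and differences carry the standard error (SE) of the limma fit, with n = 3 arrays a group. A change was called at a limma p adjusted over all probe sets under 0.05. In each group replicates 2 and 3 were more alike than either was to replicate 1. A fit with the replicate number as a block is quoted where it alters a call of a named gene or a count described. Its p is given as the block adjusted p. In tissue RNA of this kind, fewer cells of a type and less RNA in each cell cannot be told apart.

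Tyrp1, Dct and Tyr share letters near their start sites, and the windows below show them because these 3 genes moved together across the groups. Pmel was not searched, since the promoter table holds no entry for it. Mitf and its relatives bind E-boxes, among them CATGTG. In the RefSeq promoters (GRCm38.p6) of the 5 genes listed there, the 250 bases before each start site were searched on both strands for CATGTG and CACGTG, which cannot occupy the same letters. CATGTG was found once for Tyrp1, 46 to 41 bases before the start site, once for Tyr, 21 to 16 bases before it, and at 2 places for Dct, 150 to 145 and, on the other strand, 232 to 227 bases before it. The windows are written 5′ to 3′ along each gene, with CATGTG in capitals.
Tyrp1 (chr4:80834155-80834184, plus strand): tggggagggagtCATGTGctgcctagtagt
Tyr (chr7:87493516-87493545, minus strand): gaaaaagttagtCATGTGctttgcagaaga
Dct (chr14:118052379-118052408, minus strand): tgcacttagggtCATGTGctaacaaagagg
The Tyr and Dct windows lie upstream of the annotated genes (Tyr chr7:87424771-87493512 and Dct chr14:118012790-118052246). The Tyrp1 window lies upstream of the start site used but within the annotated span of the gene, chr4:80834123-80851736. All 3 windows hold the longer run TCATGTGCT, which was picked after the windows were seen, and the other Dct match, not printed, lacks it. That run occurred in 0.335% of 32851 promoters of the same length, CATGTG in 12.3%, CACGTG in 6.02% and either of them in 17.6%. Neither hexamer was found before the start of Gpnmb or the 3 start sites of Mitf. Matches to letters describe the windows only.

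At 2 h all 6 measured genes had lower means with INS37217 than with saline, and in each the 3 INS37217 arrays lay below the 3 saline arrays. This is the difference with which the genes were chosen, so it is described without a test. Ranges were apart in this way, in either direction, for 7.69% of all probe sets, and 0.128% of them passed limma in this comparison, 0.0354% as lower. The median difference of the 6 genes was -0.84, against 0.01 over all probe sets.

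**Figure D1:**
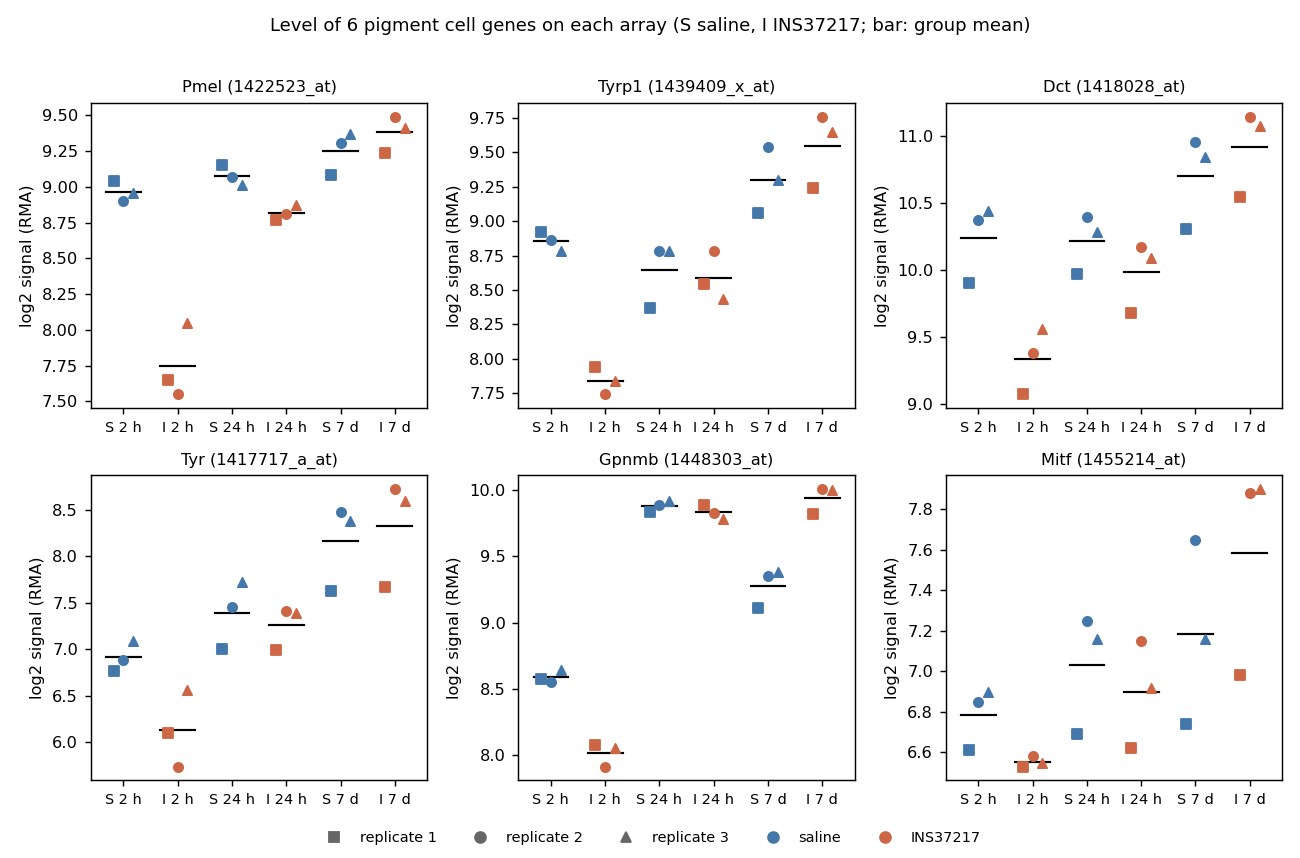
Log2 RMA signal of the main probe set of each gene on each of the 18 arrays, by group (S saline, I INS37217), with symbols for the replicate number and a bar for the group mean; each panel has its own scale. INS37217 at 2 h is the lowest group in all 6 panels, INS37217 at 7 d the highest, and Gpnmb is already near its highest level at 24 h.

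Pmel, the fibril protein (chr10:128695888-128720238, probe set 1422523_at), showed the widest gap. Its 3 saline arrays at 2 h read 9.04, 8.90 and 8.96, and its 3 INS37217 arrays 7.65, 7.55 and 8.05. The difference was -1.22 (SE 0.13), 2.32-fold lower, and it was -1.39, -1.35 and -0.91 between arrays of the same replicate number. The third INS37217 array stood above the other 2, and without it the difference was -1.37. At 24 h Pmel read 9.15, 9.07 and 9.01 with saline and 8.77, 8.81 and 8.87 with INS37217, which again did not overlap. At 7 d it read 9.08, 9.31 and 9.37 with saline and 9.24, 9.49 and 9.41 with INS37217, and these ranges crossed. In the order of group means, INS37217 at 2 h (7.75) and then INS37217 at 24 h (8.82) stood apart from their next neighbours, while saline at 2 h (8.97), saline at 24 h (9.08), saline at 7 d (9.25) and INS37217 at 7 d (9.38) each overlapped the next.

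Tyrp1, an oxidase of the late steps of melanin synthesis (probe set 1439409_x_at, a class of set whose probes may also match other transcripts), was lower at 2 h by a similar amount. Its saline arrays read 8.92, 8.86 and 8.78 and its INS37217 arrays 7.94, 7.74 and 7.84, a difference of -1.01 (SE 0.16), 2.02-fold lower. The other 2 probe sets of Tyrp1 gave -0.87 (SE 0.18) for 1415862_at and -1.16 (SE 0.34) for 1415861_at, both with ranges apart. At 24 h the main set read 8.37, 8.78 and 8.78 with saline and 8.54, 8.78 and 8.43 with INS37217. At 7 d it read 9.06, 9.54 and 9.30 against 9.24, 9.76 and 9.65. The treatments overlapped at both later times.

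Dct, which converts dopachrome in the same pathway (probe set 1418028_at), ranked high on every array, at percentile 89.4 to 98.4 of all probe sets. At 2 h it read 9.90, 10.37 and 10.44 with saline and 9.07, 9.38 and 9.56 with INS37217, a difference of -0.90 (SE 0.22). Replicate 1 was the lowest array of Dct in every group, and the same-number differences at 2 h were -0.83, -0.99 and -0.88. At 24 h Dct read 9.97, 10.39 and 10.28 with saline and 9.68, 10.17 and 10.09 with INS37217. At 7 d it read 10.30, 10.95 and 10.84 with saline and 10.54, 11.14 and 11.07 with INS37217. Only INS37217 at 2 h was apart from its neighbour in the order of means.

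Tyr, the enzyme that starts melanin synthesis (probe set 1417717_a_at), had 6.77, 6.88 and 7.09 with saline at 2 h and 6.10, 5.74 and 6.56 with INS37217. The difference was -0.78 (SE 0.29), and it is not shared by all its probe sets. The dimmer 1456095_at, between percentiles 4.05 and 19.0 of the arrays, gave -0.25 (SE 0.10), and 1448821_at, between 23.3 and 41.6, gave 0.06 (SE 0.14), the opposite sign. At 24 h Tyr read 7.00, 7.45 and 7.72 with saline and 6.99, 7.41 and 7.39 with INS37217. At 7 d it read 7.63, 8.47 and 8.38 with saline and 7.67, 8.72 and 8.59 with INS37217. Both pairs overlapped, and replicate 1 was the lowest of each later group.

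Gpnmb, the glycoprotein of melanosomes and phagocytes (chr6:49036518-49058182, probe set 1448303_at), took another course. At 2 h it read 8.57, 8.55 and 8.64 with saline and 8.07, 7.91 and 8.05 with INS37217, a difference of -0.58 (SE 0.10). At 24 h it read 9.84, 9.89 and 9.92 with saline and 9.89, 9.83 and 9.78 with INS37217. By 7 d the treatments had separated, with 9.11, 9.35 and 9.38 in saline retinas and 9.82, 10.01 and 10.00 in INS37217 retinas. INS37217 at 2 h, saline at 2 h, saline at 7 d and INS37217 at 24 h followed each other upwards with no overlap, while INS37217 at 24 h, saline at 24 h and INS37217 at 7 d could not be ordered beyond their spread.

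Mitf, the transcription factor (chr6:97807002-98021360, probe set 1455214_at), differed least at 2 h. It read 6.61, 6.85 and 6.90 with saline and 6.53, 6.58 and 6.55 with INS37217, a difference of -0.23 (SE 0.25) that is within its error although the ranges did not touch. At 24 h it read 6.69, 7.25 and 7.16 with saline and 6.62, 7.15 and 6.92 with INS37217. At 7 d it read 6.74, 7.65 and 7.16 with saline and 6.98, 7.88 and 7.90 with INS37217. Apart from INS37217 at 2 h, every group of Mitf overlapped its neighbour. The second probe set, 1422025_at, was dim at percentile 4.89 to 17.2 and gave -0.20 (SE 0.22) at 2 h.

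Other measures were also compared between the 2 h groups, and in some of them the arrays were apart while in others they overlapped. The signal of beta-actin probes at the 3' end minus those at the 5' end was 1.04 (SD 0.093) with saline and 0.747 (SD 0.042) with INS37217, and 0.603 to 0.65 in the other groups. The lens list, 10 genes, averaged 10.54 with saline at 2 h, from 10.46 to 10.65, and 11.18 with INS37217, from 11.15 to 11.22. The fibroblast list, 10 genes, averaged 6.28 (6.18 to 6.35) and 6.12 (5.96 to 6.22), ranges that overlapped, with a median difference of -0.10. Within it Dcn, a matrix proteoglycan, stood at 7.81 and 6.68. The endothelium and vessel wall list, 10 genes, averaged 6.86 (6.80 to 6.92) and 6.66 (6.55 to 6.77). The erythroid list, 4 genes, averaged 6.11 and 5.73, with a median difference of -0.13 and 1 gene higher with INS37217. The list of Schwann cells and the melanocyte lineage, 6 genes, averaged 6.38 and 6.34, and that of extraocular muscle, 9 genes, 5.36 and 5.41. The pigment epithelium list, 13 genes without any of the 7, averaged 7.60 (7.49 to 7.69) and 7.68 (7.55 to 7.77). Of its 13 genes 8 were higher with INS37217 and 5 lower. Rpe65, the retinoid isomerase of this cell layer, stood at 8.29 with INS37217 and 7.97 with saline. Car14, also of this list, went the other way, at 9.46 with INS37217 and 9.77 with saline. The part of these measures in the 2 h difference was not tested.

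The comparison of treatments at 24 h asked whether INS37217 altered the genes at a time when, per the submitters' design text, the retina had reattached. With limma 0 of the 6 genes passed, and 0 had an unadjusted p under 0.05 (with the block 0 passed and 2 had one). Over all probe sets 0.119% passed, and 0.888% with the block. All 11 probe sets had lower means with INS37217, with a median over the 6 genes of -0.13 against -0.003 over all probe sets. The widest difference was that of Pmel, -0.26 (SE 0.13, limma adjusted p = 1, block adjusted p = 0.44), and Pmel was the 1 gene whose ranges were apart, as were those of 7.48% of all probe sets. Dct stood at -0.23 (SE 0.22), Mitf at -0.14 (SE 0.25), Tyr at -0.13 (SE 0.29), Tyrp1 at -0.06 (SE 0.16) and Gpnmb at -0.05 (SE 0.10).

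At 7 d, when misfolding had resolved per the same text, Gpnmb alone of the 6 genes passed the test and was higher with INS37217. The treatments differed by 0.66 (SE 0.10, limma adjusted p = 0.0064), 1.58-fold, with same-number differences of 0.71, 0.66 and 0.62. Over all probe sets 0.15% passed, all of them higher, and 0.641% with the block. Without saline 7 d replicate 2, the array with conflicting labels, the difference was 0.70 (adjusted p = 0.03). It did not pass without INS37217 7 d replicate 2 (0.63, adjusted p = 0.06) or replicate 3 (0.64, adjusted p = 0.065), nor in a fit of the 6 arrays alone (adjusted p = 1). Between 24 h and 7 d Gpnmb fell by 0.60 (SE 0.10) with saline and stood at 0.11 (SE 0.10) with INS37217.

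The other 5 genes did not pass at 7 d. All 11 probe sets had higher means with INS37217, with a median of 0.24 over the 6 genes against -0.02 over all probe sets. Mitf stood at 0.40 (SE 0.25), Tyrp1 at 0.25 (SE 0.16), Dct at 0.22 (SE 0.22), Tyr at 0.17 (SE 0.29) and Pmel at 0.13 (SE 0.13), each with a limma adjusted p of 1. Gpnmb was the 1 main probe set with ranges apart, as were those of 3.93% of all probe sets. The 2 other probe sets of Tyr were apart as well, at 0.22 (SE 0.14) and 0.35 (SE 0.10, adjusted p = 0.52). Without the 2 outer arrays of Tyr in turn its sign was not kept: the difference was -0.10 without saline 7 d replicate 1 and -0.03 without INS37217 7 d replicate 2.

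**Figure D2:**
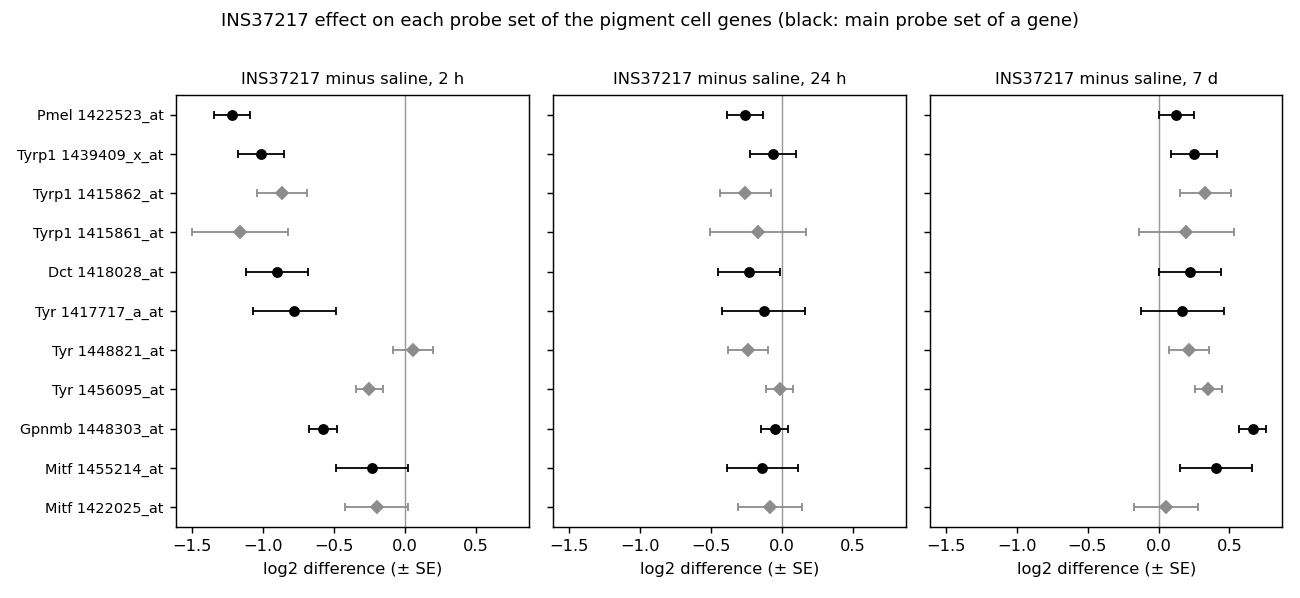
INS37217 minus saline in log2 (± SE, n = 3 arrays a group) for each of the 11 probe sets at 2 h, 24 h and 7 d; black circles mark the main probe set of a gene and grey diamonds its other sets. At 2 h, the comparison with which the genes were chosen, 10 of 11 differences are below 0, at 24 h all 11 are below 0 and at 7 d all 11 are above 0.

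Macrophage lists also had higher means at 7 d with INS37217. The microglia and macrophage list, 12 genes, averaged 7.07 (6.97 to 7.12) with saline and 7.51 (7.36 to 7.59) with INS37217. Of the 12 genes 1 passed (3 with the block), Lyz2, the lysozyme of myeloid cells, which was higher by 1.22 (SE 0.14, limma adjusted p = 0.00071). In a list of 11 measured genes of lipid-laden macrophages and lysosomes all had higher means and 1 passed (2 with the block), Arg1, an arginase of wound macrophages. It was higher by 3.23 (SE 0.47, adjusted p = 0.0064) but did not pass without INS37217 7 d replicate 2 or 3 (up to 0.06). Of 10 fibroblast genes 2 passed as higher with INS37217 (4 with the block), the collagens Col3a1 by 1.97 (SE 0.20) and Col1a2 by 1.55 (SE 0.17). The pigment epithelium list averaged 8.13 (SD 0.12) with saline and 8.04 (SD 0.15) with INS37217, with 0 of 13 past limma without or with the block (1 and 3 at an unadjusted p under 0.05). Lists like these were chosen with earlier results of these arrays known. From 24 h to 7 d the microglia and macrophage list went from 6.35 to 7.07 with saline, where Gpnmb fell, and from 6.61 to 7.51 with INS37217. The part of the cells of these lists in the level of Gpnmb was not tested.

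From 24 h to 7 d Pmel, Tyrp1 and Dct rose in INS37217 retinas. Of the 6 genes 3 passed, all higher, and 6 of 11 probe sets did, while 2.21% of all probe sets passed, 0.941% as higher. Pmel rose by 0.56 (SE 0.13, limma adjusted p = 0.024), Tyrp1 by 0.97 (SE 0.16, adjusted p = 0.0025), 1.95-fold, and Dct by 0.94 (SE 0.22, adjusted p = 0.034), 1.91-fold. In all 3, and in Tyr, the arrays of 7 d lay above those of 24 h, and 10.7% of all probe sets had ranges apart, and the same-number differences were 0.47 to 0.68 for Pmel, 0.70 to 1.22 for Tyrp1 and 0.86 to 0.98 for Dct. A second set of Tyrp1, 1415862_at, rose by 1.09 (SE 0.18, adjusted p = 0.0021), and the third stood at 1.00 (SE 0.34, adjusted p = 0.22, block adjusted p = 1e-06).

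For Tyr the call without the block depended on the probe set in this comparison, while all its probe sets had higher means at 7 d. Its brightest set stood at 1.06 (SE 0.29, limma adjusted p = 0.088, block adjusted p = 0.00023), while 1448821_at rose by 0.88 (SE 0.14, adjusted p = 0.0019) and 1456095_at by 0.73 (SE 0.10, adjusted p = 0.00031). Mitf stood at 0.69 (SE 0.25, adjusted p = 0.31, block adjusted p = 0.0025). Gpnmb stood at 0.11 (SE 0.10, adjusted p = 1). With the block 5 of the 6 genes passed, all but Gpnmb, and 10 of the 11 probe sets, against 7.66% of all probe sets. Of the 3 genes called without the block only Tyrp1 passed when any of INS37217 24 h replicates 1, 2 and 3 or INS37217 7 d replicates 2 and 3 was left out. Pmel then had adjusted p values of 0.068 to 0.13 and Dct of 0.059 to 0.17. Without INS37217 7 d replicate 1, 5 genes passed, and with the 6 arrays alone 0 did (5 at an unadjusted p under 0.05).

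In saline retinas the same interval gave smaller differences for the melanin genes and a fall of Gpnmb. With limma 0 genes rose and 1 fell (4 at an unadjusted p under 0.05), while 1.31% of all probe sets passed, and 7.37% with the block. Gpnmb fell by 0.60 (SE 0.10, limma adjusted p = 0.003), 1.52-fold, with same-number differences of -0.73, -0.54 and -0.54, and by 0.64 (adjusted p = 0.0084) without saline 7 d replicate 2. Tyrp1 stood at 0.66 (SE 0.16, adjusted p = 0.061, block adjusted p = 0.0022) with ranges apart, as were those of Gpnmb and of 11.6% of all probe sets. Without saline 7 d replicate 1 it passed (0.78, adjusted p = 0.044). Dct stood at 0.48 (SE 0.22, adjusted p = 0.57, block adjusted p = 0.0016) and Tyr at 0.77 (SE 0.29, adjusted p = 0.38, block adjusted p = 0.0075). Pmel stood at 0.18 (SE 0.13, adjusted p = 0.89) and Mitf at 0.15 (SE 0.25, adjusted p = 0.99), and neither passed with the block.

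**Figure D3:**
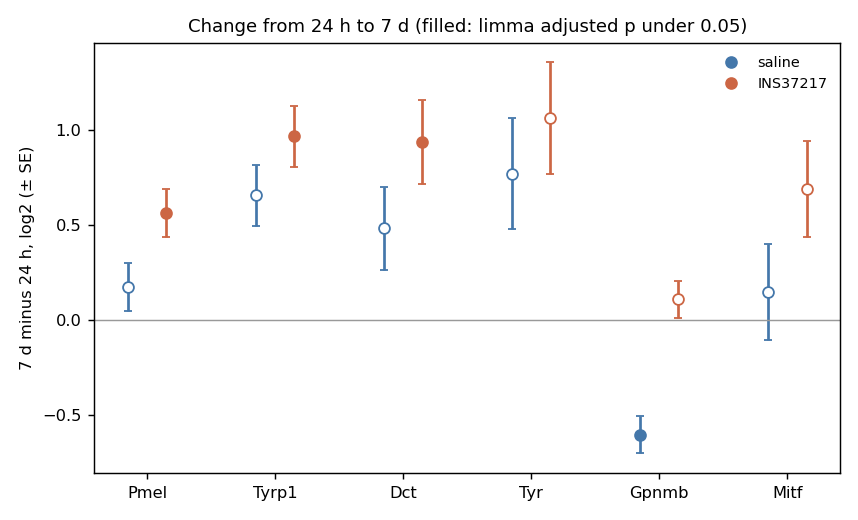
Difference in log2 between 7 d and 24 h (± SE, n = 3 arrays a group) for the main probe set of each gene in saline and INS37217 retinas; filled points have a limma adjusted p under 0.05. Gpnmb is the 1 gene below 0, in saline retinas (-0.60), and Pmel, Tyrp1 and Dct are filled in INS37217 retinas.

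Whether the treatment difference itself changed between 24 h and 7 d was tested as an interaction. With limma 0 of the 6 genes passed and 2 had an unadjusted p under 0.05, with 0.0398% of all probe sets past the test. Gpnmb had the widest change, 0.71 (SE 0.14, limma adjusted p = 0.13, block adjusted p = 0.018, where it was the 1 gene past the test and 0.274% of all probe sets passed). Mitf stood at 0.54 (SE 0.36), Dct at 0.45 (SE 0.31), Pmel at 0.39 (SE 0.18), Tyrp1 at 0.31 (SE 0.23) and Tyr at 0.29 (SE 0.41). A larger rise of the melanin genes with INS37217 than with saline was therefore not shown by these arrays.

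The intervals that start at 2 h use the arrays with which the genes were chosen and are described only. Gpnmb was higher at 24 h than at 2 h by 1.30 (SE 0.10) in saline retinas and by 1.82 (SE 0.10) in INS37217 retinas. Over the same interval Pmel differed by 0.11 (SE 0.13) with saline and 1.07 (SE 0.13) with INS37217, Tyrp1 by -0.21 (SE 0.16) and 0.74 (SE 0.16), Dct by -0.02 (SE 0.22) and 0.64 (SE 0.22), Tyr by 0.48 (SE 0.29) and 1.13 (SE 0.29), and Mitf by 0.25 (SE 0.25) and 0.34 (SE 0.25). Thus, by their main probe sets, Pmel, Tyrp1 and Dct of saline retinas differed between 2 h and 24 h by little more than their errors. The other sets of Tyrp1 gave 0.35 (SE 0.18) for 1415862_at and -0.12 (SE 0.34) for 1415861_at there, so its direction was not settled. From 2 h to 7 d the span in INS37217 retinas ran from 1.03 (SE 0.25) for Mitf to 2.19 (SE 0.29) for Tyr. In saline retinas it ran from 0.29 (SE 0.13) for Pmel to 1.25 (SE 0.29) for Tyr.

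Of a list of 34 other genes for melanosome transporters, trafficking complexes and receptors, 24 were measured. Between treatments 0 of 24 passed limma at 24 h and at 7 d, without or with the block, and 3 and 2 of them had an unadjusted p under 0.05 (5 and 3 with the block). From 24 h to 7 d in INS37217 retinas 1 rose and 1 fell (4 and 1 with the block), with a median of 0.01, and in saline retinas 0 rose and 1 fell (2 and 1 with the block, 3 at an unadjusted p under 0.05 without it). The gene that rose with INS37217 was Oca2, a melanosome membrane transporter, which went from 6.29 to 7.11 (0.82, SE 0.14, limma adjusted p = 0.0042). In saline retinas Oca2 stood at 0.44 (SE 0.14, adjusted p = 0.25, block adjusted p = 0.022). Rabggta, a subunit that adds lipid anchors to Rab proteins, fell by 0.62 (SE 0.12, adjusted p = 0.0071) with INS37217 and by 0.60 (SE 0.12, adjusted p = 0.013) with saline. The saline call of Rabggta was lost without saline 24 h replicate 1 or 3 or saline 7 d replicate 1, with adjusted p values up to 0.072.

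Some pigment cell genes of that list, named after their values were seen, are given for comparison. Trpm1, a cation channel of melanocytes and also of retinal bipolar cells, stood at -0.72 (SE 0.27) at 2 h and at 0.90 (SE 0.27, limma adjusted p = 0.13, block adjusted p = 5.1e-06) from 24 h to 7 d with INS37217. Slc45a2, a melanosome transporter, stood at -0.06 (SE 0.24) at 2 h, and Gpr143, a receptor of the melanosome membrane, at -0.04 (SE 0.23). Oca2 averaged 6.74 (6.71 to 6.75) with saline at 2 h and 6.55 (6.50 to 6.58) with INS37217. Of the 24 measured genes of the list 13 were higher with INS37217 at 2 h and 11 lower. Gpr143 stood at 0.66 (SE 0.23, adjusted p = 0.28, block adjusted p = 0.00024) from 24 h to 7 d with saline. Its means with INS37217 were 5.63 at 24 h and 6.06 at 7 d. Over the same interval the means of Trpm1 with saline were 7.21 and 7.48. Those of Slc45a2 were 7.01 and 6.96 with saline and 6.94 and 7.11 with INS37217.

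Mitf belongs to a family of related factors and works with other regulators and receptors of the melanocyte lineage. Of 12 such genes 11 were measured. Between treatments 0 passed limma at 24 h and at 7 d, without or with the block, and 1 and 0 had an unadjusted p under 0.05 (3 and 0 with the block). From 24 h to 7 d with INS37217 0 rose and 2 of the 11 fell. With the block 1 rose, Otx2, a homeobox factor of the pigment epithelium and photoreceptors (0.48, SE 0.35, limma adjusted p = 1, block adjusted p = 0.0011). Ednrb, the endothelin receptor of melanoblasts and of glia, fell by 1.51 (SE 0.20, limma adjusted p = 0.00036), and Kitl, the ligand of the melanocyte receptor Kit, fell by 0.82 (SE 0.20, adjusted p = 0.039), a call kept in 1 of 6 omissions of single arrays, with adjusted p values up to 0.23. In saline retinas 0 rose and 1 fell (1 and 2 with the block, 4 at an unadjusted p under 0.05 without it). There Ednrb fell by 0.93 (SE 0.20, adjusted p = 0.031, kept in 1 of 6 omissions with values up to 0.15) and Kitl stood at -0.67 (SE 0.20, adjusted p = 0.16, block adjusted p = 0.0012). The saline call of Ednrb was lost without saline 7 d replicate 2, among others. Sox10 and Kit, which mark neural crest melanocytes, were measured at group means of 6.71 to 7.18 and 5.97 to 6.25.

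Some genes of the retinal pigment epithelium list, with roles other than melanin, rose from 24 h to 7 d in both treatments. Not all genes of this list are confined to that cell layer. In saline retinas 3 of 13 rose (7 with the block) and in INS37217 retinas 3 of 13 (6 with the block), with medians of 0.46 and 0.30 over the 13. Rpe65 rose by 1.25 (SE 0.12) with saline and by 1.16 (SE 0.12) with INS37217, each at a limma adjusted p of 2.2e-05. Car14, a membrane carbonic anhydrase, rose by 1.32 (SE 0.14) and 1.84 (SE 0.14), and Rlbp1, a carrier of visual cycle retinoids that Mueller glia make as well, by 1.08 (SE 0.25, limma adjusted p = 0.049) with saline and 1.54 (SE 0.25, adjusted p = 0.0022) with INS37217. The saline call of Rlbp1 was kept in 1 of 6 omissions of single arrays, with adjusted p values up to 0.23. That call was lost without saline 7 d replicate 2, among others. For Car14 and Rlbp1 the rise largely returned to the 2 h level. Car14 averaged 9.77, 8.48 and 9.80 at 2 h, 24 h and 7 d with saline, and 9.46, 7.92 and 9.75 with INS37217. Rlbp1 averaged 9.62, 8.64 and 9.72, and 9.58, 8.05 and 9.60. Rpe65 averaged 7.97, 7.82 and 9.07, and 8.29, 7.52 and 8.68. The list means went from 7.58 to 8.13 with saline and from 7.52 to 8.04 with INS37217. Whether these genes and the melanin genes have the same cells as their source was not tested.

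**Figure D4:**
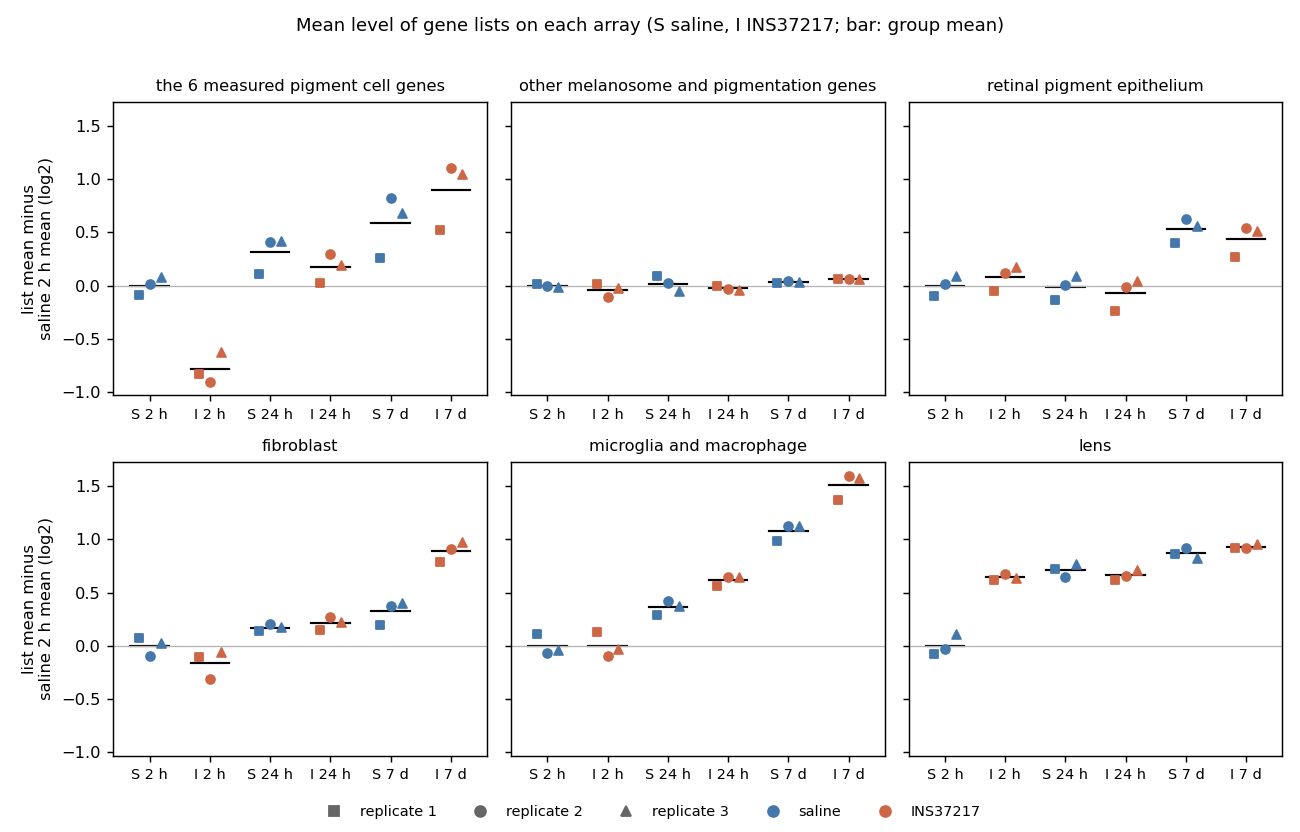
Mean log2 level of gene lists on each array, less the mean of the saline 2 h group, with a bar for the group mean (S saline, I INS37217). The 6 pigment cell genes are lowest in INS37217 retinas at 2 h, the mean of the other melanosome genes stays near 0, the pigment epithelium list is higher at 7 d in both treatments, and the lens list is lowest in saline retinas at 2 h.

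The melanin genes varied together over the 18 arrays. After the mean of the 6 arrays of the same replicate number was taken from each value, Pearson's r was 0.971 between Tyrp1 and Dct, 0.937 between Pmel and Dct, 0.936 between Tyr and either Dct or Tyrp1, 0.899 between Pmel and Tyrp1 and 0.886 between Pmel and Tyr. Mitf correlated with Tyr at 0.914, with Tyrp1 at 0.878, with Dct at 0.854 and with Pmel at 0.754. Gpnmb correlated with the other 5 at 0.606 to 0.755. These coefficients are descriptions, since the 18 arrays share 6 groups and the 2 h difference that chose the genes.

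Among 12392 other genes ranked by their likeness to Pmel, Dct was the first, Tyrp1 the third and Tyr number 8, while Gpnmb was number 75 and Mitf number 76. Without the centring Gpnmb was number 26 and Mitf number 120, and with only replicates 2 and 3 they were numbers 236 and 88. Of genes outside the 7, the most alike was Dcn, the proteoglycan named above (r = 0.93, Spearman's rho = 0.845). Next came Igfbp5, a binding protein of insulin-like growth factors (0.896), and Ccng2, an atypical cyclin (0.896), and Cat, catalase, stood at 0.889. Chac2, Myl9, Trpm1, Nudt16l1 and Hsd17b11 were also among the 10 most alike, at 0.851 to 0.885. Of these 10, 5 stayed among the 10 most alike without the centring, and 5 with only replicates 2 and 3.

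The genes most like Gpnmb were different: with the centring none of the other 5 pigment cell genes ranked above number 745. Without it the highest of them was Pmel at number 319, and with only replicates 2 and 3 Tyr at number 1072. The closest were Tst, a mitochondrial sulfurtransferase (r = 0.971), Tmem176a, a membrane protein (0.971), Tmem14c, a mitochondrial porphyrin transporter (0.965), Pbxip1 (0.961) and Ghr, the growth hormone receptor (0.959). Acadl, Anxa4, Mgst1, A2m and Plce1 followed at 0.949 to 0.958. Of these 10, 6 stayed among the 10 most alike under either change. The 2 lists of 10 shared no gene.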

How the data were processed

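Retinal RNA of 18 arrays was analysed from the deposited log2 values, which the authors computed by RMA per the submitters' processing notes. No source used here states the RMA version or settings. Of 22690 probe sets, 64 controls were left out. Gene names came from the platform's probe table and RefSeq: 20380 probe sets had 1 gene, 691 several and 1555 none. A gene was represented by its probe set of highest mean.

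Differences were fitted by lmFit and eBayes of limma 3.58.1 (R 4.3.3; 1 mean for each of 6 groups, 12 residual degrees of freedom), and p values were adjusted by Benjamini and Hochberg over 22626 probe sets. The fit without the block was tested on simulated data with independent noise. That simulation held no likeness by replicate number, so it does not show how this likeness affects the calls. Arrays of the same replicate number, once group means were removed, correlated at 0.426 to 0.921 over 45 pairs from different groups. Replicate 1 with 2 or 3 correlated at -0.847 to -0.501 over 60 such pairs. On the values as deposited, replicates 2 and 3 of a group correlated at 0.994 to 0.997, and replicate 1 with either at 0.959 to 0.981. Replicate 1 was thus set apart, and whether replicates 2 and 3 also pair by number was not tested. Saline 7 d replicate 2 correlated with the other 7 d arrays at 0.954 to 0.994 and with saline 2 h arrays at 0.947 to 0.979. Its microglia and macrophage list mean was 7.12, against 6.97 and 7.12 on the other saline 7 d arrays and 5.92 to 6.10 with saline at 2 h. Its lens list mean was 11.46, against 11.40 and 11.36, and 10.46 to 10.65. By both lists this array lay with the saline 7 d arrays and not with those of saline 2 h. The number of arrays limits the precision.

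The 7 genes and all gene lists were chosen with earlier results of these data known. INS37217 against saline at 2 h and the 4 intervals from 2 h were described, and the other 5 comparisons tested. Named were the 7 genes, list genes past a test (up to 4 of largest change a list), and the 10 genes most like Pmel and Gpnmb by Pearson's r. Only some of the genes so chosen are printed. The alternatives tried were normalization, centring, a filter on dim probe sets, moderation, fewer arrays, the block, other probe sets and omission of single arrays.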

Additional observations from a re-analysis of the deposited data

Results flagged for a closer look

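The treatment difference of Gpnmb changed between 24 h and 7 d by 0.71 (SE 0.14), from -0.05 to 0.66. It was picked out because the interaction passed limma with the replicate number as a block (adjusted p = 0.018), though not without it (adjusted p = 0.13), and the change between arrays of the same number was 0.66, 0.72 and 0.76. With only replicates 2 and 3 it was 0.74 (adjusted p = 0.049), and with single arrays left out it ranged from 0.63 to 0.78 with adjusted p values of 0.086 to 0.50. Over this interval Gpnmb itself fell by 0.60 (SE 0.10) with saline and stood at 0.11 (SE 0.10) with INS37217. The macrophage lists whose levels stand beside the 7 d result in the text were also higher with INS37217 at 7 d, and their part was not tested.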

How the results depend on the processing

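Counts of genes past the test, of 6, moved as follows. For INS37217 against saline at 24 h the count was 0 under all alternatives run. At 7 d it was 1, but 0 with only the 6 arrays compared, and 0 to 1 with single arrays left out. From 24 h to 7 d in saline retinas it was 1, but 4 with the replicate block, 2 after another quantile normalization, 2 without the dimmer probe sets, those under the median mean, 0 with only the arrays compared (3 at an unadjusted p under 0.05), 4 with only replicates 2 and 3, 2 with means over each gene's probe sets, and 1 to 2 with single arrays left out. In INS37217 retinas it was 3, but 4 after another quantile normalization, with Tyr past the test (1.07, adjusted p = 0.026), 5 with the replicate block, with only replicates 2 and 3 or with gene means, 0 with only the arrays compared, and 1 to 5 with single arrays left out. The interaction count was 0, but 1 with the replicate block and 1 with only replicates 2 and 3. Equal medians and eBayes with trend and robust left these 5 counts as they were.

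Signs turned for differences close to 0 or on other probe sets. At 24 h Tyrp1 was 0.00824 after another quantile normalization and ranged from -0.20 to 0.017 with single arrays left out, positive without saline replicate 2 or 3 or INS37217 replicate 3. Tyr ranged from -0.32 to 0.038, positive without saline replicate 3 or INS37217 replicate 1, and Mitf from -0.31 to 0.0017, positive without INS37217 replicate 1. At 7 d Tyr ranged from -0.098 to 0.50, negative without saline replicate 1 or INS37217 replicate 2. Mitf from 24 h to 7 d with saline ranged from -0.083 to 0.37, negative without saline 24 h replicate 1 or saline 7 d replicate 2. Probe set 1448821_at of Tyr gave 0.057 for the treatments at 2 h and -0.063 for 24 h against 2 h with INS37217. For 24 h against 2 h with saline, Tyrp1 was 0.0067 as a gene mean and 0.35 by 1415862_at, Tyr was -0.033 by 1456095_at and Mitf -0.22 by 1422025_at, which gave -0.11 with INS37217. The cause was not tested. List genes were refitted only with the block and with single arrays left out. The dim sets of Tyr and Mitf, near the bottom of the signal range, limit what they show.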
